A study of Mus musculus with 6 samples.

Results

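The replication-dependent histone genes, named Hist1h, Hist2h, Hist3h and Hist4h in the mouse annotation used, were examined across 6 single-cell libraries of mouse acute myeloid leukaemia. A gene was included when its symbol started with one of those names in the feature lists of both leukaemia models and it reached 5 counts per 1000000 UMIs (CPM) in any library. Of 67 such symbols, 57 met the rule: 5 of 6 genes for linker histone H1, 16 of 18 for H2A, 15 of 18 for H2B, 9 of 12 for H3 and 12 of 13 for H4. Hist1h2ah (5.4 CPM in its highest library) and Hist2h2be (5.6) lay just inside the limit, and Hist2h3c1 (3.9) and Hist3h2ba (3.6) just outside. The other 8 symbols left out reached at most 2.8 CPM. In GRCm38, 48 of the 57 genes lie on chromosome 13, 7 on chromosome 3, 1 on chromosome 11 (Hist3h2a) and 1 on chromosome 6 (Hist4h4).

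All libraries came from bone marrow of leukaemic mice after lysis of red cells. The label protocols state that the MLL-AF9 (MA9) or Hoxa9-Meis1 (HM) fusion gene was put into mouse embryonic stem cells. MLL-AF9 is a fusion of a chromatin regulator with a transcription elongation partner, and Hoxa9 and Meis1 are transcription factors that cooperate in myeloid leukaemia. The MA9 libraries are labelled Shp-1 f/f or Shp-1 delta/delta, each with PBS or with Arac+Dox (cytarabine and doxorubicin), and the HM libraries are titled Shp-1 f/f, with PBS or Arac+Dox. Shp-1 is the phosphatase encoded by Ptpn6. The sources used here do not give age, sex, the Cre driver or how many mice entered a library, and each of the 6 groups is 1 library. Differences between libraries were therefore given with counting error only and no p-value. Values listed for 6 libraries below are always in the order MA9 f/f PBS, MA9 delta/delta PBS, MA9 f/f Arac+Dox, MA9 delta/delta Arac+Dox, HM PBS and HM Arac+Dox, as labelled.

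Ptpn6 was measured at 186, 172, 57.7, 43.6, 135 and 113 CPM. The MA9 library labelled Shp-1 delta/delta with PBS was thus as high as the one labelled f/f with PBS, and the MA9 library labelled f/f with Arac+Dox was low. If those 2 labels were exchanged, each comparison given here as deletion would be one of chemotherapy, and each given as chemotherapy one of deletion, so MA9 libraries are named only as labelled. The data give no coordinates of a deleted part, and 3′ counts outside it would not show a deletion. Cells with at least 500 genes and at most 10% mitochondrial counts were kept, 8614, 9431, 9750, 9446, 2755 and 4676 cells, with 15111411 to 103581646 unique molecular identifier (UMI) counts per library. HM PBS stood apart: 22.1% of its barcodes were kept and 74.7% were over the mitochondrial limit, against 1.83 to 8.33% in the other libraries. MA9 libraries shared 18 to 27 cell barcodes with each other, and the HM libraries shared 6. MA9 and HM barcodes have 16 and 17 bases, so none could match between the models.

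Replication-dependent histone mRNAs are the main messages of animal cells that end in a conserved stem-loop rather than a poly(A) tail. The stem-loop is bound by Slbp, the U7 ribonucleoprotein directs cleavage just after it, and the messages accumulate in S phase, when new DNA is wrapped onto nucleosomes, and are degraded when replication stops. Some of these genes also give polyadenylated transcripts in cells that have left the cell cycle, through poly(A) sites downstream of the stem-loop. The libraries were made with the Chromium Single Cell 3′ v2 kit, which primes on poly(A). How much of the stem-loop-ended message such priming captures was not tested, so CPM values of different genes are not an order of mRNA amounts.

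The stem-loop is shown for members on which the results below turn, because the members differ in how far their annotated transcripts run past it. Each line is 26 bases of the GENCODE vM21 transcript (GRCm38), 5′ to 3′, with the 16-base stem-loop in capitals. Hist1h2ab, Hist1h3b and Hist1h3c were among the members with the largest ratios between cycling and non-cycling cells.
Hist1h2ab, chr13:23751567-23751592, plus strand: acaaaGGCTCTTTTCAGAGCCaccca
Hist1h3b, chr13:23752815-23752840, plus strand: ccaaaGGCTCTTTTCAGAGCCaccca
Hist1h3c, chr13:23745042-23745067, minus strand: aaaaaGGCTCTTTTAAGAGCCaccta
Hist1h4i, Hist4h4, Hist1h1c and Hist3h2a had small or negative ratios.
Hist1h4i, chr13:22040961-22040986, minus strand: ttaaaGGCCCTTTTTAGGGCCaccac
Hist4h4, chr6:136803993-136804018, minus strand: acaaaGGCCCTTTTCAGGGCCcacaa
Hist1h1c, chr13:23739507-23739532, plus strand: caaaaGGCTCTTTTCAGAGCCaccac
Hist3h2a, chr11:58955167-58955192, plus strand: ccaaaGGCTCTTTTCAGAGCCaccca
Hist1h4b, Hist1h4a and Hist1h3a, neighbours on chromosome 13, were higher on the S-phase side of the cycling cells.
Hist1h4b, chr13:23757361-23757386, plus strand: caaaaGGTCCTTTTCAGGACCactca
Hist1h4a, chr13:23760795-23760820, minus strand: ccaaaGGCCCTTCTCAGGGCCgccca
Hist1h3a, chr13:23761885-23761910, minus strand: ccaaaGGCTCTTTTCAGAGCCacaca
The motif searched on the transcript strand was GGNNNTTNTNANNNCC, with the 4 bases after GG complementary to the 4 before CC. It occurred in 90 of 58797 protein-coding transcripts (0.153%). The 26 bases printed for Hist3h2a and Hist1h3b are identical, although these genes differed most in the comparison of cycling and non-cycling cells among the members shown.

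Summed over the 57 genes, histone transcripts made up 3449, 2177, 3432, 4178, 4966 and 2396 CPM of all kept cells. HM PBS was highest and MA9 delta/delta PBS lowest. The linker histone gene Hist1h1b (ENSMUSG00000058773, chr13:21779883-21780625, minus strand) was at 554, 465, 708, 821, 562 and 153 CPM. It was the most counted member in each of the 4 MA9 libraries and had its lowest level in HM Arac+Dox. Hist1h1e, another linker histone, was at 331, 178, 322, 272, 914 and 211 CPM, with HM PBS above every other library. Hist1h1c and Hist1h1d had the same highest library, at 132, 81.0, 141, 108, 444 and 208 CPM and at 103, 60.6, 100.1, 104, 243 and 64.8 CPM. Hist1h1a, the H1 member with the lowest maximum over the 6 libraries, was at 65.4, 69.99, 77.3, 123, 95.2 and 32.8 CPM.

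Core histone genes differed in which library was highest. Hist1h3c was at 299, 109, 263, 148, 487 and 224 CPM and Hist1h2an at 116, 70.6, 121, 79.0, 260 and 31.7 CPM, both highest in HM PBS. Hist2h2ac was at 125, 81.5, 112, 145, 192 and 49.9 CPM. Hist1h2ab, at 179, 62.3, 219, 77.8, 225 and 69.6 CPM, was low in both MA9 libraries labelled delta/delta and in HM Arac+Dox. The H4 gene Hist1h4d was at 267, 142, 192, 191, 237 and 316 CPM and was highest in HM Arac+Dox, unlike the linker histone genes. Hist1h2ae was at 323, 176, 339, 492, 268 and 250.5 CPM, highest in MA9 delta/delta Arac+Dox.

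The widest spread of any member belonged to Hist1h2ap (ENSMUSG00000094777, chr13:21833026-21833507), at 88.0, 45.8, 15.8, 487, 0.331 and 0.322 CPM. In the annotation the last 200 bases of Hist1h2ap consist of 50-base stretches that other genes also hold, and the same is true of at least 95% of such stretches in Hist2h2aa1, Hist1h2br, Hist1h2ai, Hist1h4k, Hist1h2bn, Hist1h2ah, Hist1h3f and Hist1h3e. For Hist1h1e the sharing gene is Hist1h2be, whose annotated span covers it on the same strand. No source used here says how reads shared between such genes were counted, so values of these 10 genes are uncertain.

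Cells were next divided, within each library, into cycling cells with at least 2 UMIs of Mki67 and Top2a together and non-cycling cells with 0. Mki67 marks proliferating cells and Top2a is a topoisomerase of dividing cells. Cycling cells were 42.0, 47.4, 50.5, 65.3, 30.0 and 23.4% of kept cells. Their median depth was 9920, 13904, 10277.5, 13969, 7221 and 20176 UMIs, against 4733, 3542.5, 5874, 2908, 3597 and 5579 in non-cycling cells. Counts were summed per library and class and fitted with edgeR's quasi-likelihood test with library as a block, so each ratio was compared with its spread over 6 libraries of 6 different groups.

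Histone genes were higher in cycling cells almost throughout the family. With adjusted p under 0.05 in that edgeR fit, 54 of 57 members were higher, 1 was lower and 2 were not called, while 27.3% of the 13407 genes fitted were higher and 25.4% lower. Of the 54, 53 were higher in each of the 6 libraries; the other was Hist2h2aa1, at 0 CPM in cycling and 0.158 CPM in non-cycling cells of HM PBS. The median log2 ratio was 3.33 over the members and -0.01 over all genes. All 5 H1, all 9 H3 and all 12 H4 members rose, as did 15 of 16 H2A and 13 of 15 H2B members, with median log2 ratios of 3.29, 3.61, 2.48, 3.71 and 3.59 in that order. The H4 genes thus had the lowest median of the 5 types.

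**Figure D1:**
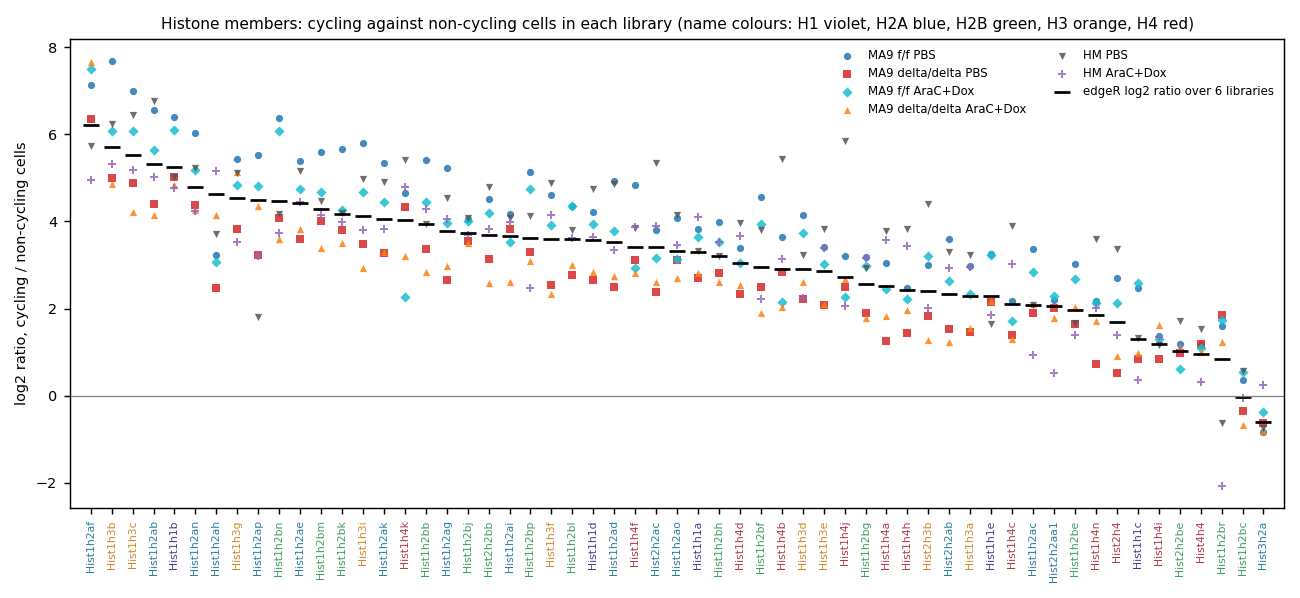
The plot of cycling ratios shows, for each of the 57 members on the horizontal axis, the log2 CPM ratio of cycling to non-cycling cells in each of 6 libraries (coloured symbols) and the edgeR log2 ratio (black dash), with names coloured by histone type. The ratios run from Hist1h2af at 6.21 to Hist3h2a at -0.60, and only the members at the right end have plotted libraries below 0 (Hist2h2aa1 has too few counts for a ratio in HM PBS).

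Hist1h3b, an H3 gene, was at 58.9, 19.98, 57.8, 24.5, 94.7 and 71.3 CPM in cycling cells and at 0.286, 0.621, 0.852, 0.843, 1.27 and 1.80 CPM in non-cycling cells. Every cycling value was more than 10 times every non-cycling value (log2 ratio 5.71 ± 0.33 SE, edgeR adjusted p = 4.2e-06, 6 libraries). Hist1h3c was at 508, 148, 404, 170, 998 and 388 CPM against 3.998, 4.97, 5.96, 9.16, 11.6 and 10.7 CPM (5.52 ± 0.36, adjusted p = 7.3e-06). Hist1h2ab was at 303, 83.9, 336, 89.3, 463 and 120 CPM against 3.24, 3.95, 6.77, 5.06, 4.27 and 3.70 CPM (5.31 ± 0.34, adjusted p = 6.4e-06). Its cycling level was lowest in MA9 delta/delta PBS and highest in HM PBS. Hist1h1b was at 938, 629, 1087, 944, 1125 and 263 CPM against 11.2, 19.4, 15.8, 32.9, 34.7 and 9.69 CPM (5.26 ± 0.34, adjusted p = 6.4e-06). Hist1h2an was at 196, 94.8, 185, 90.5, 523 and 53.5 CPM against 2.998, 4.57, 5.11, 4.74, 13.9 and 2.83 CPM (4.79 ± 0.28, adjusted p = 4.6e-06). Hist1h2af had the largest ratio of all members, 6.21 ± 0.41 (adjusted p = 7.4e-06), but its non-cycling level rested on 7, 4, 5, 1, 5 and 18 UMIs.

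Among the remaining highly counted members the ratio was smaller for linker histones Hist1h1e and Hist1h1c. Hist1h1e was at 526, 225, 472, 305, 1416 and 309 CPM in cycling cells and at 55.5, 50.8, 50.5, 67.3, 456 and 85.1 CPM in non-cycling cells (2.29 ± 0.32, adjusted p = 0.0006). Hist1h1c was at 200.4, 92.5, 201, 116, 648 and 232 CPM against 36.2, 51.8, 33.1, 59.2, 259 and 182 CPM (1.31 ± 0.35, adjusted p = 0.013). Both had their highest non-cycling level in HM PBS. The log2 ratio was 3.57 ± 0.23 for Hist1h1d, 3.29 ± 0.20 for Hist1h1a, 4.42 ± 0.24 for Hist1h2ae, 3.06 ± 0.16 for Hist1h4d and 3.41 ± 0.27 for Hist2h2ac, each called higher and each higher in 6 of 6 libraries.

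Hist3h2a was the exception in direction. This H2A gene (ENSMUSG00000078851, chr11:58954685-58956830, plus strand) was at 8.02, 11.6, 10.4, 10.6, 11.99 and 19.0 CPM in cycling cells and at 14.2, 17.9, 13.5, 18.4, 20.1 and 16.01 CPM in non-cycling cells. It was lower in cycling cells in 5 of 6 libraries, all but HM Arac+Dox, and its log2 ratio was -0.60 ± 0.17 (edgeR adjusted p = 0.016). The call was lost when each cell was thinned to 2000 UMIs (-0.24), within cells with at least 20 Camp and Ngp UMIs (-0.11) and without the library block (-0.68). Hist1h2bc, an H2B gene, was at 36.7, 54.6, 36.0, 39.9, 121 and 73.7 CPM against 28.5, 69.8, 24.5, 63.8, 82.0 and 76.8 CPM, and was not called (-0.04 ± 0.16, adjusted p = 0.86). Its libraries were split, with cycling cells higher in 3 of 6.

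The next 4 members had log2 ratios near 1. Hist1h2br was at 17.6, 14.8, 6.78, 23.6, 2.07 and 0.670 CPM against 5.81, 4.12, 2.03, 10.1, 3.17 and 2.83 CPM, higher in cycling cells in the 4 MA9 libraries and lower in both HM libraries (0.85 ± 0.58, adjusted p = 0.24). It was called without HM Arac+Dox (1.37) and in the MA9 libraries alone (1.67). Hist4h4 was at 12.2, 11.6, 12.4, 18.9, 11.0 and 5.53 CPM against 5.47, 5.08, 5.82, 9.37, 3.799 and 4.46 CPM (0.96 ± 0.20, adjusted p = 0.0037). Hist1h4i was at 48.5, 43.1, 47.8, 65.0, 54.5 and 45.2 CPM against 18.8, 23.9, 19.4, 21.2, 24.4 and 17.7 CPM (1.18 ± 0.17, adjusted p = 0.00075). Hist2h2be stayed at 5.94 CPM or less (1.02 ± 0.19, adjusted p = 0.0022), and its call was lost without the library block and among cells with at least 2 UMIs of Cd34, Kit, Flt3 and Sox4.

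The member sum was 5633, 2800, 5111, 4725, 9065 and 3763 CPM in cycling cells and 363, 486, 373, 678, 1134 and 606 CPM in non-cycling cells. The fold was 15.5, 5.76, 13.7, 6.97, 7.996 and 6.21 (mean log2 3.12, SD 0.605, n = 6 libraries). Histones thus took 0.280 to 0.907% of UMIs in cycling cells and 0.0363 to 0.113% in non-cycling cells, with HM PBS highest in both. The makeup of the sum in non-cycling cells also differed between the libraries of the 2 models. Linker histone genes gave 69.3% of histone UMIs in non-cycling HM PBS cells and 47.6% in non-cycling HM Arac+Dox cells, against 28.9 to 32.9% in the MA9 libraries. Hist1h1e, whose counting is uncertain, was at 456 of the 785 CPM of H1 genes in non-cycling HM PBS cells. In cycling cells the H1 share was 34.3 to 39.9% in MA9, 42.5% in HM PBS and 25.7% in HM Arac+Dox, so the HM libraries lay on both sides of MA9. The H1 fold between classes was accordingly 16.2, 7.52, 17.1, 8.29, 4.90 and 3.35, whereas the H3 fold was 31.5, 7.85, 19.8, 6.85, 40.3 and 19.4.

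**Figure D2:**
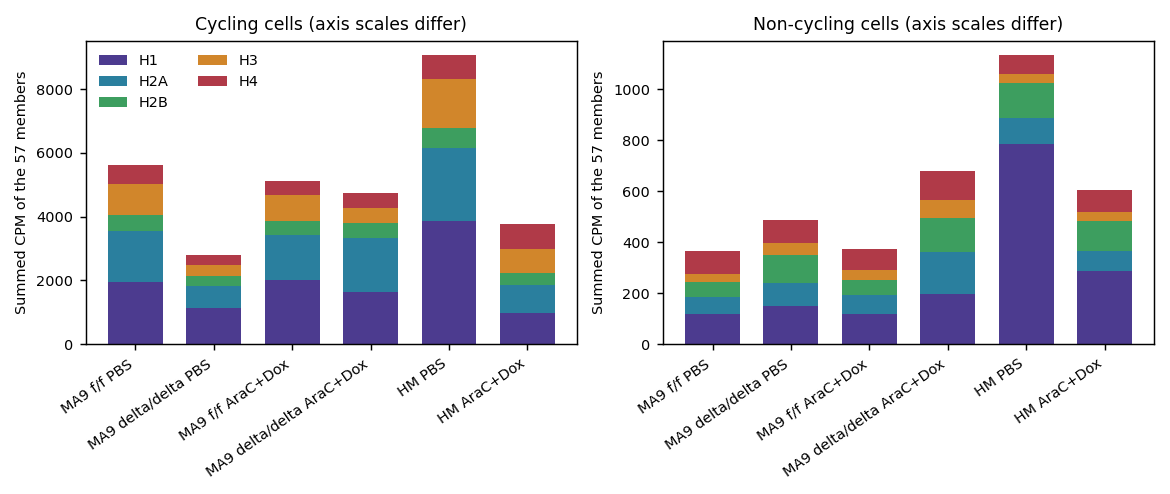
The stacked bars give the summed CPM of the 57 members by histone type in each library, for cycling cells (left) and non-cycling cells (right, on a smaller scale). HM PBS is the tallest bar in both panels, at 9065 and 1134 CPM, and its non-cycling bar is mostly H1.

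Markers of several cell types differed between the classes as well. All 5 mature neutrophil markers were lower in cycling cells, and their sum was 106, 52.2, 111, 51.9, 3784 and 2647 CPM in cycling cells against 1359, 562, 1370, 544, 38030 and 24065 CPM in non-cycling cells. All 5 T-cell and 4 of 5 B-cell markers were lower, 1 of 6 monocyte markers was lower, 3 of 7 progenitor markers (Kit, Mpo and Elane) and 4 of 6 erythroid markers were higher, and of 5 neutrophil precursor markers 2 were higher and 2 lower. Within single gates the histone counts were similar: 54 members were higher and 0 lower among cells with at least 20 Camp and Ngp UMIs, 54 higher and 1 lower among cells with at least 2 Cd34, Kit, Flt3 and Sox4 UMIs (5 libraries), and 54 higher and 1 lower among cells with at least 3 Csf1r, Fn1 and F13a1 UMIs. In the first of these gates, edgeR at unadjusted p under 0.05 also called 0 members lower. When each cell was thinned to 2000 UMIs, 55 were higher and 0 lower.

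The share of cells with any Hist1h1b UMI followed the same division. After thinning to 2000 UMIs it was 68.0, 56.2, 68.9, 74.4, 68.3 and 41.3% of cycling cells and 3.65, 6.79, 4.68, 17.6, 8.37 and 3.64% of non-cycling cells (unthinned, 77.9 to 91.6% and 7.28 to 31.2%). Non-cycling cells with a Cxcr2 UMI, a receptor of mature neutrophils that no longer divide, had 3.64, 6.17, 4.56, 19.7, 7.13 and 2.54% after thinning (unthinned 5.52 to 28.6%, median depth 3919 to 6993 UMIs). The share in all non-cycling cells was close to that of these neutrophils in each library and was not read as expression.

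Hist1h2bc and Hist3h2a kept a level outside cycling cells that differed between gates. In non-cycling cells Hist1h2bc was at 68.0, 187, 53.9, 78.5, 81.3 and 88.6 CPM in cells with a Cxcr2 UMI and at 26.5, 44.6, 17.9, 28.6, 49.3 and 65.6 CPM in cells with at least 20 Camp and Ngp UMIs, the markers of neutrophil precursors. It was higher in the Cxcr2 cells in all 6 libraries. Hist3h2a was at 23.8, 18.9, 21.3, 24.7, 13.2 and 36.6 CPM in the progenitor gate, where the value of HM PBS is 1 UMI in 14 cells, and at 4.52, 4.15, 4.89, 8.16, 12.2 and 12.5 CPM in the Camp and Ngp gate. It was higher in the progenitor gate in the other 5 libraries, and the 1 UMI of HM PBS gives no order. Hist1h1e in non-cycling HM PBS cells was at 474 CPM in the Camp and Ngp gate, 447 in Cxcr2 cells, 304 in the progenitor gate and 369 in the monocyte gate, but at 89.1 CPM in 32 T cells by their markers.

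Genes that act on histone mRNA and protein moved in the same direction but less. Of 15 genes for histone mRNA transcription, processing and decay, 12 were higher and 1 lower in cycling cells, with a median log2 ratio of 0.74. Slbp, which binds the stem-loop, was higher by 1.18 ± 0.11 (adjusted p = 6e-05), the exonuclease gene Eri1 by 1.19, the cleavage factor gene Cstf2 by 1.07 and Npat, the coactivator of histone transcription, by 0.997. Lsm10, a subunit of the U7 ribonucleoprotein, fell by 0.80 (adjusted p = 0.0052). Of 23 histone chaperone genes 19 were higher and 0 lower (median 1.35). The H3-H4 chaperone gene Asf1b was higher by 3.78, the chromatin assembly factor gene Chaf1a by 2.04, Mms22l, a replication-coupled repair factor, by 1.97 and Dnajc9 by 1.86.

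Genes listed here as replication-independent histones gave a mixed picture: 7 of 11 were higher, 0 lower and 4 not called. H2afx, the variant phosphorylated at DNA breaks, was higher by 2.77 ± 0.19 (adjusted p = 8.1e-06), centromeric Cenpa by 2.35, H2afz by 1.56 and H2afv by 1.47. The 4 not called were H3f3a (-0.39), H3f3b (0.13), H2afj (-0.06) and H2afy (0.37). All 26 S-phase and all 24 G2/M genes were higher, and of 9 p53 target genes 1 was higher and 4 were lower.

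The annotated 3′ ends of the members were compared with their cycling ratios, which the choice of members did not use. A stem-loop was found in 40 of the 57 annotated transcripts. In 19 members the annotated transcript runs 100 bases or more past the stem-loop; their median log2 cycling ratio was 2.52 (-0.60 to 4.42) and their median non-cycling level was 11.1 CPM. In 21 members it ends within 100 bases; their median ratio was 3.61 (1.86 to 5.71) and their median non-cycling level was 1.51 CPM. In 17 members no stem-loop is annotated (median 3.70, -0.04 to 6.21), and since several of those annotations stop at the coding end this says nothing of the mRNA. The 100-base limit was chosen after the values were seen, and no test was made between these groups.

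Members at each end of the range of ratios had annotated ends of different length, with exceptions. Among the 6 lowest ratios, Hist3h2a runs 1643 bases past its stem-loop, Hist4h4 2445 and Hist1h4i 330. Hist1h2bc, Hist1h2br and Hist2h2be have no annotated stem-loop. Among the 6 highest, the length was 51 for Hist1h3b, 74 for Hist1h3c and 11 for Hist1h2ab. Hist1h2af, Hist1h1b and Hist1h2an have no annotated stem-loop. Hist1h1c (840 bases) and Hist1h1e (1153) lie further inside the range. A poly(A) signal (AATAAA or ATTAAA in the last 50 bases) was present in 12 members, which had a median ratio of 1.50, against 3.59 in the 45 without. It was present in 50.2% of all protein-coding transcripts. Hist1h2ae had a signal and a ratio of 4.42. Other members that went the other way were Hist1h1d, with the longest end of all (4884 bases) and a ratio of 3.57, and Hist1h2bh (1214 bases, 3.20). Hist1h4n (31 bases, 1.86) and Hist2h2aa1 (35 bases, 2.05) had short ends and small ratios.

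**Figure D3:**
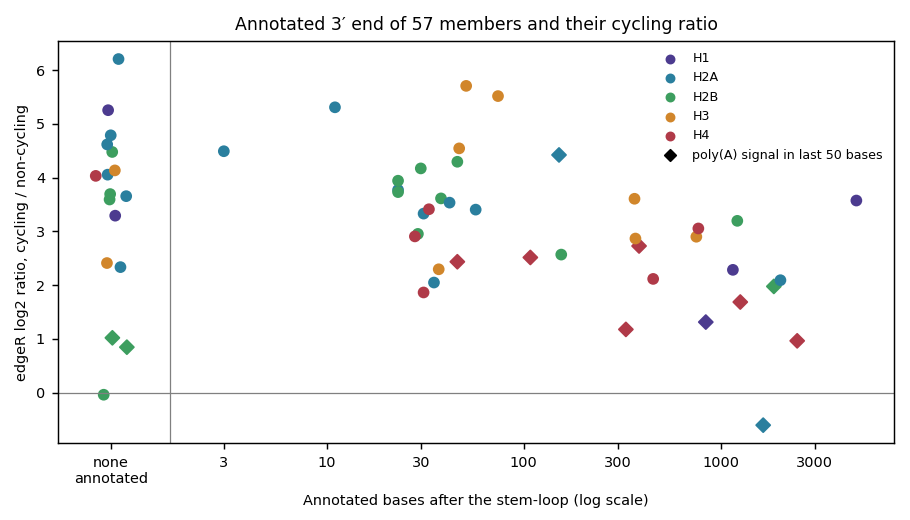
Each point is 1 of 57 members, with the annotated bases after the stem-loop on a log axis (members with no annotated stem-loop at the left) and the edgeR log2 ratio of cycling to non-cycling cells on the vertical axis; diamonds have a poly(A) signal. The median ratio is 2.52 for the 19 members with 100 bases or more and 3.61 for the 21 with fewer.

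RefSeq promoters (GRCm38.p6, 250 bases before to 50 after the start) were found for 50 members. CCAAT, on either strand, occurred in 42 of them and in 37.9% of all 27025 promoters. It was present in all H1, H2A, H2B and H3 promoters matched and in 3 of 11 H4 promoters. TATAAA occurred in 30 (14.2% of all promoters) and the octamer ATTTGCAT in 11, of which 6 were H2A and 5 H2B (1.75% of all promoters). These matches are descriptions of the windows, not binding sites.

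The pair Hist1h2ac and Hist1h2bc shows how far neighbours from 1 such region could differ. They are transcribed away from each other with 250 bases between their annotated starts (Hist1h2ac chr13:23681467-23683948, minus strand; Hist1h2bc chr13:23684199-23692908, plus strand), yet the cycling log2 ratio was 2.09 for Hist1h2ac and -0.04 for Hist1h2bc. The stretch upstream of Hist1h2ac, on its strand, holds matches to all of these motifs (in capitals, each on either strand).
Hist1h2ac upstream, chr13:23683960-23684209, minus strand: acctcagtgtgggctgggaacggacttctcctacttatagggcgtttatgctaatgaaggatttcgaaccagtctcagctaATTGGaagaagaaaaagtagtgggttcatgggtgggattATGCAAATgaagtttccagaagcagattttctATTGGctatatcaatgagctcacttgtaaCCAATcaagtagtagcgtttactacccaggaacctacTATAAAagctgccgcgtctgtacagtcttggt
The stretch upstream of Hist1h1b, the most counted member in MA9, is shown beside it. It holds CCAAT and TATAAA and no octamer.
Hist1h1b upstream, chr13:21780626-21780875, minus strand: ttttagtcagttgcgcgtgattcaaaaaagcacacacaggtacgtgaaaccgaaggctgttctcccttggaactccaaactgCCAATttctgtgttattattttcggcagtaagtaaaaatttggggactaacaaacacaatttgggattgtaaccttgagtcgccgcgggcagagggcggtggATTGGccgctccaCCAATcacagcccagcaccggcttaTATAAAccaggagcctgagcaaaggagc

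Cycling cells were then ranked within each library by the log2 ratio of 26 S-phase to 24 G2/M transcripts, with no histone gene among them, and cut in 3 equal parts of 1205, 1491, 1640, 2055, 275 and 364 cells. The upper part is called S-side and the lower G2M-side. They are ranges of a score, not phases, and 55 to 857 cells per library lay within 0.25 log2 units of a cut. Median depth was 9434 to 19462.5 UMIs in S-side and 6340 to 18329 in G2M-side cells.

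Histone genes were not, as a family, highest in S-side cells. In an edgeR fit over the 6 libraries with library as a block, 4 members were higher in S-side than in G2M-side cells, 22 were lower and 31 were not called at adjusted p under 0.05. Of the 12603 genes fitted, 16.4% were higher and 15.2% lower. The median log2 ratio was -0.51 over the members and -0.02 over all genes. Of H1 genes 1 was higher and 2 lower, of H2A 0 and 5, of H2B 0 and 6, of H3 1 and 5, and of H4 2 and 4. Without the library block 0 members were called and 3 had an unadjusted p under 0.05. The 26 calls were 11 without MA9 f/f PBS or without MA9 f/f Arac+Dox, 12 without MA9 delta/delta PBS and 46 without HM Arac+Dox.

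The 4 members higher in S-side cells lie next to each other on chromosome 13, with no other histone gene of these lists between them. They are Hist1h4b (23757013-23757409), Hist1h4a (23760692-23761230), Hist1h3a (23761853-23762386) and Hist1h1a (23763666-23764406). Hist1h1a was at 93.7, 81.0, 97.1, 144, 239 and 96.2 CPM in S-side cells and 51.9, 68.5, 50.4, 104, 56.4 and 18.9 CPM in G2M-side cells (log2 ratio 1.10 ± 0.24, adjusted p = 0.0075). Hist1h4a was at 8.24, 6.89, 5.87, 15.99, 21.5 and 40.2 CPM against 4.56, 3.09, 3.06, 15.3, 6.93 and 12.9 CPM (0.97 ± 0.20, adjusted p = 0.0056). Each was higher in 6 of 6 libraries, with the smallest difference in MA9 delta/delta Arac+Dox for Hist1h4a and in MA9 delta/delta PBS for Hist1h1a. Hist1h3a was at 42.9, 22.7, 40.2, 38.8, 29.5 and 30.1 CPM against 17.8, 20.1, 16.01, 33.1, 21.7 and 9.10 CPM (0.86 ± 0.22, adjusted p = 0.015). Its call was lost without MA9 f/f PBS (0.75) and without MA9 f/f Arac+Dox (0.74). Hist1h4b was at 5.41, 4.46, 4.82, 7.38, 20.03 and 16.3 CPM against 3.34, 2.89, 2.67, 6.51, 6.93 and 6.58 CPM (0.80 ± 0.17, adjusted p = 0.0062). Both were higher in S-side cells in 6 of 6 libraries.

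The 22 members lower in S-side cells had log2 ratios from -1.39 to -0.44. For 6 of the 22, S-side cells were the higher side in no library, and the rest were not in 1 direction throughout. Hist3h2a was at 3.07, 3.24, 4.88, 7.34, 11.7 and 18.9 CPM in S-side cells and 14.2, 24.7, 16.5, 13.7, 12.5 and 21.7 CPM in G2M-side cells (-1.39 ± 0.31, adjusted p = 0.0088). Hist1h2bc was at 14.8, 24.8, 16.7, 35.01, 95.4 and 62.9 CPM against 56.3, 98.4, 51.4, 47.9, 149 and 96.8 CPM (-1.21 ± 0.20, adjusted p = 0.002). These 2 genes, which did not rise in cycling cells, were lower in S-side cells in 6 of 6 libraries and had their highest level in G2M-side cells in all 6. Hist1h1c was at 73.0, 47.2, 80.7, 84.5, 509 and 220 CPM against 252, 144, 253, 135, 802 and 230 CPM (-1.08 ± 0.20, adjusted p = 0.0033). Hist1h3c was at 151, 63.3, 133, 110, 998 and 373 CPM against 666, 254, 529, 207, 922 and 316 CPM (-1.13 ± 0.31, adjusted p = 0.02), lower in the MA9 and higher in the HM libraries. Its call was lost without any 1 of the first 3 MA9 libraries (-0.94 to -0.96). Hist2h2ab (-1.32 ± 0.28, adjusted p = 0.0067) and Hist1h2br (-1.11 ± 0.19, adjusted p = 0.0027) complete the 6 lowest.

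For most members the cells between the 2 ends were highest. The middle cells had the highest level in at least 4 of 6 libraries for 33 of 57 members, G2M-side cells for 6 and S-side cells for 0. Hist1h1b was at 545, 487, 586, 770, 1310 and 351 CPM in S-side, 1503, 855, 1792, 1151, 1278 and 293 in middle and 778, 529, 883, 875, 728 and 141 in G2M-side cells, and was not called (0.10, adjusted p = 0.75). It peaked in middle cells in the MA9 libraries and in S-side cells in the HM libraries.

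The member sum showed the same division of the models. It was 2674, 1759, 2449, 3584, 9119 and 4331 CPM in S-side cells, 8293, 3125, 7554, 5428, 9977 and 4196 in middle cells and 5918, 3565, 5284, 4929, 8011 and 2654 in G2M-side cells. In the 4 MA9 libraries 4, 4, 5 and 8 of 57 members were higher in S-side than in G2M-side cells. In HM PBS 29 were and in HM Arac+Dox 49 were, with median log2 ratios of 0.01 and 0.70 (over 55 members with enough counts) against -1.15 to -0.45 in MA9.

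**Figure D4:**
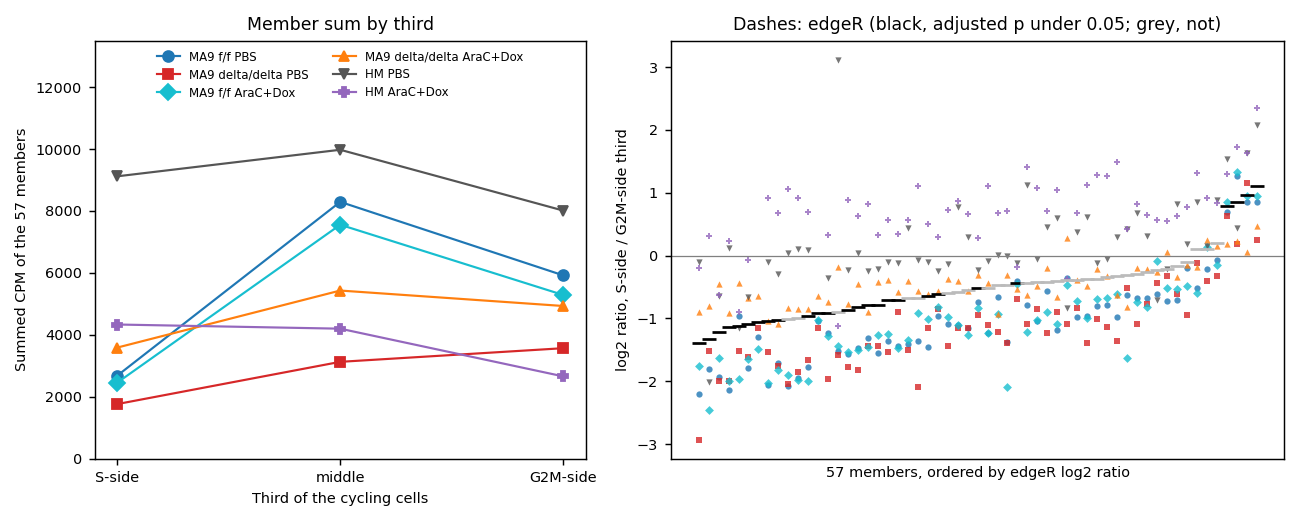
The left panel gives the summed CPM of the 57 members in S-side, middle and G2M-side cycling cells of each library, and the right panel each member's log2 ratio of S-side to G2M-side cells in each library, with the edgeR ratio as a dash (black where adjusted p is under 0.05). The sum is lowest in S-side cells in the MA9 libraries and lowest in G2M-side cells in both HM libraries.

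This difference was tested with an added edgeR term for HM against MA9, chosen after the values were seen. The S-side to G2M-side log2 ratio was higher in HM than in MA9 for 54 of 57 members, with a median difference of 1.16 against 0.03 over all genes. At adjusted p under 0.05, 11 members were higher in HM and 0 lower, against 0.238% and 0.603% of 12603 genes. At unadjusted p under 0.05 the counts were 42 and 0, against 8.04% and 9.47%. Among the 11 were Hist1h1a (log2 ratio 0.67 in MA9 and 2.09 in HM, adjusted p = 0.049), Hist1h1b (-0.30 and 0.95, adjusted p = 0.046) and Hist1h3c (-1.71 and 0.05, adjusted p = 0.046). The count was 0 without MA9 f/f PBS, without MA9 delta/delta PBS or without MA9 f/f Arac+Dox, with 40 to 42 members at unadjusted p under 0.05. It was 3 without HM Arac+Dox, 16 without HM PBS and 32 without MA9 delta/delta Arac+Dox. The 2 models also differ in feature list, barcode length and possibly software, which cannot be told apart from the leukaemia.

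The same term for the cycling ratio gave 2 members higher in HM, Hist1h4h (0.96) and Hist1h4c (1.09), and 8 lower, against 13.1% and 13.4% of 13407 genes. The number lower was near the share over all genes and the number higher was below it. Neither count was read as particular to histone genes. The 8 lower included the linker histone genes Hist1h1e (-1.59), Hist1h1c (-1.52) and Hist1h1b (-1.33), and Hist1h2br (-3.68). With total counts as the only scaling the split was 5 higher and 2 lower. It was 0 higher and 4 lower without HM PBS, and 1 higher and 2 lower without HM Arac+Dox.

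Of the 15 histone mRNA processing genes 5 were higher in S-side cells, 1 was lower and 9 were not called (median log2 ratio 0.16). Slbp was higher by 1.40 ± 0.14, Casp8ap2, which is required for processing at histone loci, by 1.17, Npat by 0.96 and Eri1 by 0.66. Of 23 chaperone genes 16 were higher and 2 lower (median 0.54): Chaf1b, of the chromatin assembly factor, by 2.52, Hat1, which acetylates new H4, by 1.55, Nasp by 1.35 and Mms22l by 1.34. Of 11 replication-independent histone genes 2 were higher and 5 lower, with Cenpa at -3.54, H2afx at -1.81, H1f0 at -1.23 and H2afv at -0.65. The cell type markers gave 2 of 5 neutrophil precursor genes and 1 each of the mature neutrophil, monocyte and progenitor lists lower, and 3 of 9 p53 targets lower; their part in the result was not tested.

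Libraries were compared in 5 pairs by their labels: MA9 delta/delta against f/f with PBS and with Arac+Dox, Arac+Dox against PBS in MA9 f/f and in MA9 delta/delta, and Arac+Dox against PBS in HM. The 4 MA9 pairs share libraries, each library standing in 2 of them. A member was counted as different at 2-fold or more with at least 5 CPM in either library, with 95% Clopper-Pearson intervals that cover counting error only. The cell makeup differed between libraries. The summed neutrophil precursor markers were at 32870, 2980.5, 31858, 2969, 45330 and 28535 CPM, mature neutrophil markers at 535, 161, 449, 107, 20634 and 11442.5, progenitor markers at 4773, 5883, 6109, 9647, 904 and 1609, and erythroid markers at 722, 4.61, 220, 46.4, 213 and 3.85 CPM. Monocyte markers ranged from 410 to 725, B-cell markers from 9.20 to 149 and T-cell markers from 8.19 to 208 CPM. In MA9, neutrophil precursor and erythroid markers were thus high in both libraries labelled f/f and low in both labelled delta/delta; their part in the pairs below was not tested.

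Between MA9 delta/delta and f/f with PBS, histone genes were lower on the side labelled delta/delta. Of 47 members at the floor 0 were 2-fold higher and 7 lower, against 5.31% and 3.93% of 9378 genes, and the member sum was 0.631-fold. With median-of-ratios scaling 13 were lower. The median log2 ratio was -0.55 over members and 0.15 over all genes. Hist1h2ab was 62.3 against 179 CPM (log2 ratio -1.52, 95% interval -1.57 to -1.47), Hist1h3c 109 against 299 (-1.45, -1.49 to -1.42), Hist1h2bn 12.8 against 30.1 (-1.24) and Hist1h3b 14.8 against 34.6 (-1.23). The counting of Hist1h2bn is uncertain, as given above. In cycling cells alone 22 of 53 were lower and 0 higher (4.14% and 5.51% of genes), with a sum of 0.497-fold. Cycling cells were set by a fixed UMI limit, and their median depth was 13904 UMIs in delta/delta against 9920 in f/f. After thinning to 2000 UMIs their share was 28.01% against 29.62%, the reverse of the unthinned order. The cycling-cell counts of these pairs were not made at equal depth, so they do not hold cell-cycle makeup constant. In non-cycling cells 1 of 22 was higher and 0 lower (8.08% and 3.69% of genes). That gene was Hist1h2bc, at 69.8 against 28.5 CPM (1.29, 1.15 to 1.44), the member that did not differ between cycling classes.

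With Arac+Dox more members were higher on the side labelled delta/delta. Of 54 members 12 were 2-fold higher in MA9 delta/delta and 1 was lower, against 6.54% and 4.81% of genes. Among the 12, Hist2h2ab, Hist2h2be, Hist1h2ai, Hist1h2bp and Hist1h4a were under 5 CPM in MA9 f/f Arac+Dox. They entered this pair only through the delta/delta library, so their direction was fixed by the floor. Of these, Hist2h2ab, Hist2h2be and Hist1h2bp reached 5 CPM in no other library. Hist1h2ap was 487 against 15.8 CPM (4.95, 4.87 to 5.03), Hist2h2aa1 46.2 against 5.13 (3.17), Hist1h2br 21.8 against 5.09 (2.10) and Hist1h2ac 75.6 against 26.7 (1.50). The first 3 are among the genes whose 3′ sequence is shared. Hist1h2ab was lower, at 77.8 against 219 CPM (-1.49), as in the PBS pair. In cycling cells 8 members were higher and 8 lower of 55 (6.03% and 4.99% of genes), and in non-cycling cells 14 of 31 were higher and 0 lower (11.2% and 4.41%). Of the 14, Hist2h2aa1, Hist2h4, Hist1h3i, Hist1h2ap, Hist1h2br, Hist1h2bh, Hist1h3d and Hist1h2bb were under 5 CPM in non-cycling f/f cells. Their direction was fixed by the floor as well. The 14 include Hist1h1b, whose share in non-cycling cells was highest in this delta/delta library and close to that of Cxcr2 cells. That share was not read as expression above, and how far the same limit holds for the other members was not tested.

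The 2 MA9 pairs with and without Arac+Dox gave different counts, and their difference was not tested. Between f/f with Arac+Dox and f/f with PBS, 0 of 47 members were 2-fold higher and 3 lower, against 0.695% and 1.46% of genes, and the sum was 0.995-fold. The 3 were Hist1h2ap (15.8 against 88.0 CPM, -2.48), Hist2h2aa1 (5.13 against 19.7, -1.95) and Hist1h2br (5.09 against 12.6, -1.30), all of uncertain counting. All other members at the floor differed by less than 2-fold. In cycling cells 0 of 53 were higher and 3 lower (0.728% and 1.14% of genes), and in non-cycling cells 1 of 24 was higher and 2 lower (1.15% and 1.87%). Between delta/delta with Arac+Dox and delta/delta with PBS, 20 of 54 were higher and 0 lower, against 1.25% and 2.28% of genes, and the sum was 1.92-fold. Among the 20, Hist2h2ab, Hist2h4, Hist2h3b, Hist1h2bl, Hist1h2ai, Hist1h4j, Hist1h2bp, Hist1h4f and Hist1h4a were under 5 CPM with PBS. They entered this pair only through the library with Arac+Dox, so their direction was fixed by the floor. Of these, Hist2h2ab, Hist1h4j and Hist1h2bp reached 5 CPM in no other library. Hist1h2ap was 487 against 45.8 CPM (3.41), Hist1h2ac 75.6 against 22.1 (1.78), Hist1h3d 41.4 against 13.6 (1.61) and Hist2h2aa1 46.2 against 16.3 (1.50). In cycling cells alone 14 of 54 were higher and 0 lower (1.3% and 2.11% of genes), with a sum of 1.69-fold, and in non-cycling cells 11 of 30 were higher and 0 lower (2.97% and 1.84%). The limit given above for non-cycling cells of delta/delta with Arac+Dox applies to this last count as well.

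In HM the library with Arac+Dox had lower histone levels than that with PBS. Of 48 members 20 were 2-fold lower and 1 higher, against 9.63% and 13.5% of genes, and the sum was 0.482-fold. Hist1h2an was 31.7 against 260 CPM (-3.03, -3.12 to -2.95), Hist1h1e 211 against 914 (-2.11), Hist2h2ac 49.9 against 192 (-1.95) and Hist1h1d 64.8 against 243 (-1.91). Hist1h3f had the highest ratio among members at 20 CPM or more, at 53.3 against 28.4 CPM (0.91), and the only member 2-fold higher was Hist1h2ao, at 9.16 against 2.85 CPM (1.69). The counting of Hist1h1e and Hist1h3f is uncertain, as given above. Of the 50-base stretches in the last 200 bases, other genes also hold 67.55% in Hist1h2an and 81.46% in Hist1h2ao. Hist1h2ao was under 5 CPM in HM PBS. Of the 20 lower, Hist2h4, Hist2h3b, Hist1h2ah, Hist1h3g and Hist1h2ad were under 5 CPM in HM Arac+Dox. The direction of all of these was therefore fixed by the floor. Hist1h2ao reached 5 CPM in no library but HM Arac+Dox, and Hist1h2ah in none but HM PBS. The share of cycling cells was 23.4% against 30.0%, and after thinning to 2000 UMIs it was 10.76% against 19.97%. In cycling cells alone 24 of 50 were lower and 1 higher (12.3% and 8.84% of genes), with a sum of 0.415-fold. Median depth of these cycling cells was 20176 UMIs with Arac+Dox against 7221 with PBS. The fixed UMI limit may therefore select unlike cells, and the count was not made at equal depth. In non-cycling cells 5 of 21 were lower and 2 higher (8.09% and 23.4% of genes). Since 74.7% of the barcodes of HM PBS were over the mitochondrial limit, this pair compares a small surviving set of cells with a nearly whole library.

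**Figure D5:**
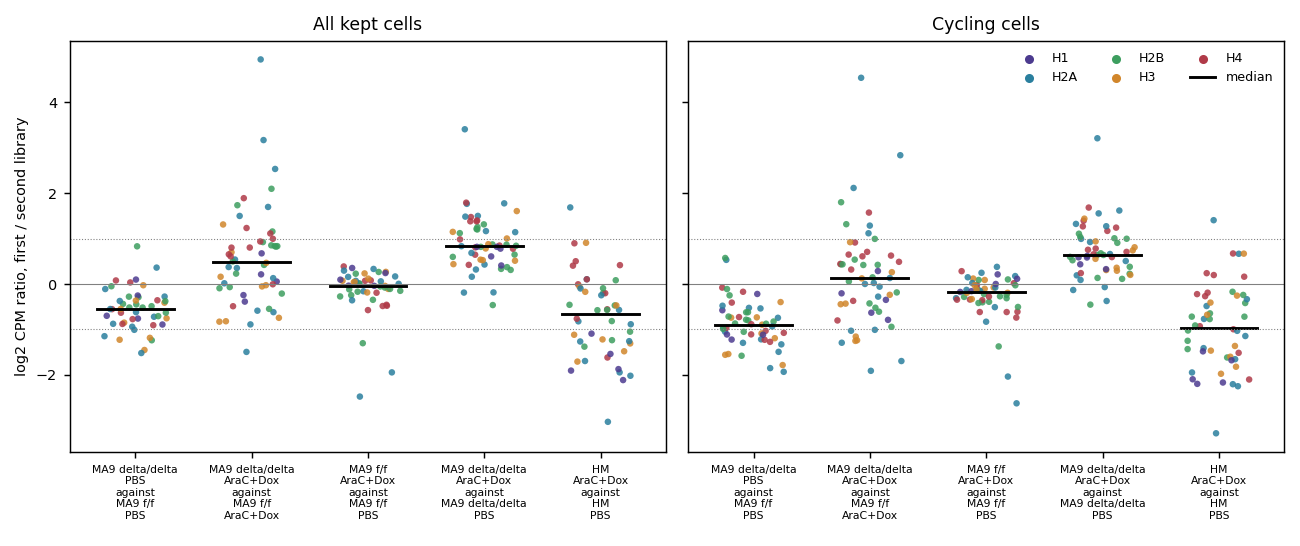
Each point is 1 member at 5 CPM or more in either library of a pair, coloured by histone type, with the log2 CPM ratio on the vertical axis, for all kept cells (left) and cycling cells (right); black lines are medians and dotted lines mark 2-fold. Points sit mostly below 0 for MA9 delta/delta against f/f with PBS (median -0.55) and for HM (-0.67), and mostly above 0 for MA9 delta/delta Arac+Dox against delta/delta PBS (0.83).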

How the data were processed

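Single cells from bone marrow of 6 leukaemia groups were captured with the Chromium Single Cell 3′ v2 kit, per the labels' protocols. The deposited files hold raw UMI counts per gene and cell barcode, which the authors made with Cell Ranger 3.0.2 against mm10, per the submitters' processing notes. The MA9 file headers name that software and the HM headers name none; the HM feature lists are longer (32285 against 31053 genes) and HM barcodes have 17 rather than 16 bases. Genes were joined by gene ID over the 30406 IDs in both lists. Doublets were kept in the values given, and removal of 392, 330, 583, 373, 54 and 82 cells called by Scrublet (scanpy 1.11.5) was an alternative. Its automatic threshold marked under 0.5% of cells in 3 libraries, where 0.187 was used instead.

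Counts were summed per library and class of cells and given as CPM of all UMIs. Classes were tested with edgeR 4.0.16 (glmQLFit and glmQLFTest, TMM scaling, filterByExpr, R 4.3.3), with library as a block and Benjamini-Hochberg adjustment over all genes fitted. In a library's own ratio a class at 0 was set to 3 counts, and no ratio was given where both classes had 3 or fewer. An SE is the log2 ratio divided by the root of F. The library is the block because both classes come from its cells. Libraries are not replicates of a group, so these p-values measure spread over 6 groups. Ratios between libraries have exact Clopper-Pearson 95% intervals. The fits were tested on simulated data. Alternatives were DESeq2 1.42.0, total counts only, no filter, no block, doublets removed, thinning to 2000 UMIs, marker gates, other floors and leaving out each library.

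Members and gene lists were chosen with earlier results of these data known. Values are given for the 12 members with the highest CPM, for 6 at each end of the class contrasts and for up to 4 in each direction per library pair at 20 CPM or more. Of each other list, up to 4 genes are named. Any further gene was named after its values were seen, and the HM against MA9 term was added after seeing the data. Sequences are from GENCODE vM21 transcripts and RefSeq promoters of GRCm38.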

Additional observations from a re-analysis of the deposited data

Results flagged for a closer look

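Hist1h2ap and Hist2h2aa1 moved in opposite directions between Arac+Dox and PBS in the 2 MA9 pairs. The log2 ratio of Hist1h2ap was -2.48 in the libraries labelled f/f and 3.41 in those labelled delta/delta, and that of Hist2h2aa1 was -1.95 and 1.50. With 1 library per group the difference was not tested, and both genes share their 3′ sequence with other histone genes.

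The HM minus MA9 difference in the cycling log2 ratio passed the edgeR interaction test at adjusted p under 0.05 for 10 members, 2 higher and 8 lower in HM, against 13.1% and 13.4% of all genes. The number lower was near the share over all genes and the number higher was below it, so neither was read as particular to histone genes. With total counts as the only scaling the split was 5 higher and 2 lower. The difference was below 0 for Hist1h2br (-3.68), Hist1h2af (-2.46), Hist1h2ac (-1.68), Hist1h1e (-1.59), Hist1h1c (-1.52), Hist1h2be (-1.45), Hist1h1b (-1.33) and Hist4h4 (-0.91). It was above 0 for Hist1h4h (0.96) and Hist1h4c (1.09).

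The same difference in the S-side to G2M-side log2 ratio passed for 11 members, all above 0, against 0.238% of all genes higher and 0.603% lower. The count was 0 without MA9 f/f PBS, without MA9 delta/delta PBS or without MA9 f/f Arac+Dox. These were Hist1h4i (1.09), Hist1h1b (1.25), Hist1h3i (1.34), Hist1h1a (1.42), Hist2h2ac (1.58), Hist1h2ae (1.65), Hist1h3c (1.76), Hist1h2bn (1.82), Hist1h2af (1.96), Hist1h2ad (1.99) and Hist1h3f (2.05). Hist1h1b and Hist1h2af appear under both contrasts with opposite sign.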

How the results depend on the processing

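The 55 members called between cycling and non-cycling cells were 55 with DESeq2, total counts only, no filter or doublets removed, 55 to 56 when any 1 library was left out and 47 with no replicate block. The 26 called between S-side and G2M-side cells were 0 with no replicate block, 51 in the MA9 libraries alone, and 11 to 46 when 1 library was left out: 11 without MA9 f/f PBS, 12 without MA9 delta/delta PBS, 11 without MA9 f/f Arac+Dox and 46 without HM Arac+Dox. The cause was not tested. The HM against MA9 term for that contrast gave 7 members with total counts only, 30 with no filter and 0 to 32 when 1 library was left out. For the cycling contrast it gave 3 to 10 when 1 library was left out.

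Among library pairs, MA9 delta/delta against f/f with PBS had 7 members 2-fold different, 13 with median-of-ratios scaling, which shifted this pair by 0.153 on the log2 scale, 22 in cycling cells and 1 in non-cycling cells. With a floor of 20 CPM the counts were 7 for MA9 delta/delta against f/f with Arac+Dox, 1 for f/f Arac+Dox against PBS, 10 for delta/delta Arac+Dox against PBS and 13 for HM. In non-cycling cells alone the last 2 pairs had 11 and 7. Fewer members are tested in these settings. Named genes kept direction and side of the threshold in 311 of their alternative values, lost it in 20, gained it in 5 and reversed in 0. Depth limits the non-cycling level of rarely counted members: Hist1h2af had 1 to 18 UMIs per library and Hist1h2ah 0 to 5.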
